A study of Mus musculus with 20 samples.

Results

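The genes described here encode the proteins of the cytosolic ribosome, measured as messenger RNA in mouse ovaries. They are every gene row whose symbol begins with Rpl (large subunit) or Rps (small subunit) and a digit, without pseudogene symbols ending in -ps and without the Rps6k kinases. The rule gave 82 of the 23457 gene rows, 49 with an Rpl and 33 with an Rps symbol. It used no measured value. The same letters also bring in Rps19bp1, which encodes a protein that binds Rps19 and is not part of the ribosome, and several paralogs such as Rpl39l and Rps27l. They miss 7 genes of the same machinery that carry other symbols, among them Rplp0, Rplp2, Rpsa and Gnb2l1.

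Polyadenylated RNA from the ovaries of 20 female mice was sequenced, with 1 library per mouse and 5 mice in each of 4 groups, all from the Ames dwarf stock. Dwarf mice were df/df and 6 or 22 months old. Their controls, called normal here, were N/df heterozygotes of the same stock and the same ages, so both genotypes carried the df allele. The df mutation leaves homozygotes without growth hormone, prolactin and thyrotropin, and it is present from conception in all cells, so no group separates an effect on the ovary from one on the pituitary. The title of the series places the work in reproductive ageing of a long-lived mouse.

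Each cytosolic ribosome joins a large and a small subunit, and each subunit holds 1 copy of nearly every ribosomal protein around its ribosomal RNA. Cells make these proteins in matched amounts, and most of the mRNAs share a 5′ terminal oligopyrimidine tract, a C at the cap followed by a run of C and T. Through that tract the kinase complex mTORC1 and the RNA-binding protein Larp1 govern how strongly and how stably the mRNAs are used. In the ovary the demand for ribosomes is high in growing oocytes and in dividing granulosa cells.

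The starts of a few members are shown because the tract is the feature the family is known for and because their levels moved together or stood apart below. Each line gives the 15 bases before and the 15 bases from the start that RefSeq annotates (GRCm38.p6, the assembly called mm10), and capitals mark the longest run made of a C followed by at least 4 more C or T that begins within 10 bases of that start on the coding strand. In Rpl39 a shorter run of that kind, left in lower case, lies nearer the start. Rpl18, Rpl15, Rpl13a, Rpl10a and Rps19 were called lower with age in dwarf mice. Rps6, Rpl10 and Rpl39 were not, and Rpl39l is the paralog with the steepest fall.
Rpl18, chr7:45718056-45718085, plus strand: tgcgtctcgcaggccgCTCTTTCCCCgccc
Rpl15, chr14:18270972-18271001, minus strand: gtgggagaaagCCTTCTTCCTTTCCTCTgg
Rpl13a, chr7:45128731-45128760, minus strand: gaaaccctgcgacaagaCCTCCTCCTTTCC
Rpl10a, chr17:28328456-28328485, plus strand: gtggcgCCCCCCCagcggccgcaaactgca
Rps19, chr7:24884898-24884927, plus strand: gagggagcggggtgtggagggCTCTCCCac
Rps6, chr4:86857353-86857382, minus strand: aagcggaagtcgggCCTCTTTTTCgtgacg
Rpl10, chrX:74270801-74270830, plus strand: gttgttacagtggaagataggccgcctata
Rpl39, chrX:37085208-37085237, minus strand: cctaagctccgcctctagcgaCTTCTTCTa
Rpl39l, chr16:10170213-10170242, plus strand: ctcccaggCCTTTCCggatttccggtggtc

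Runs marked in this way stood both at members that were called and at members that were not: Rps6 and Rpl39 hold one, and Rpl10 does not in this window. Some of them are not the tract as defined above. Those of Rpl10a and Rpl39l end before the annotated start, and those of Rps19 and Rpl39 begin 6 bases after it. The RefSeq table matched 62 of 82 members (75.6%), so a comparison over the family is void. The shares that follow describe the matched members only and were not tested. Of those matched, 38 (61.3%) had such a run near a listed start, against 34.4% of the 27025 genes of that RefSeq list. RefSeq and the gene annotation deposited with the series placed the start of 50 of the 62 within 10 bases of each other, while those of Rpl39 and Rps19 lay 38 and 199 bases apart. Rpl8, Rpl36 and Rps4y2, described below, have no entry.

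Levels are given as CPM, each gene's count scaled to the library's total in gene rows, or as the percent of that total. Fold changes are log2 values from edgeR with TMM scaling over all 20 libraries. The SE after ± is the size of the fold change over the root of the F value of its test. Adjusted p-values come from edgeR's quasi-likelihood test with Benjamini-Hochberg adjustment over all 16099 tested genes, and a gene is said to have risen, fallen or been called where that value is under 0.05. Of the 82 members 79 had enough counts to be tested. Those left out were Rpl26, Rpl10l and Rpl3l.

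The libraries held between 1365640 and 36068284 counts in gene rows. Normal 6-month replicate 3 was the shallowest, and it stood apart in other ways: the ribosomal RNA gene Rn45s took 14.8% of its counts (2.40 to 10.0% in the other libraries), and 16.2% of its reads were in the row for alignments that were not unique (8.70 to 12.1% in the others). It was also the highest library of its group for 72 of the 79 tested members, so the main counts and medians that rest on normal 6-month mice are given with and without it. At the other end, normal 6-month replicate 5 was the lowest of the group for 50 of the 79. Normal 6-month replicate 2 had oviduct markers at a sum of 6052 CPM and oocyte markers at 4.88 CPM. Its granulosa markers summed to 71.3 CPM (2203 to 3396 in the other normal 6-month libraries) and its luteal markers to 99.2 CPM (6308 to 8676). Normal 22-month replicate 3 had B cell markers at 758 CPM. Results are also given without these 3 libraries where that changes them. Dwarf 22-month replicates 1 and 4 differed less from each other than any other pair within a group (chi-square per degree of freedom 2.46 over all genes, 12.2 or more in other pairs). That is still above sampling noise, and they entered as 2 mice. The oocyte marker Gdf9 was detected in each group, from 1.17 to 122 CPM in normal 6-month libraries and down to 3.12 CPM in normal 22-month ones.

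Taken as a family, the 82 members held a larger share of the counts in young dwarf ovaries than in old ones. The share was 6.73, 6.84, 6.44, 7.21 and 7.02% in dwarf 6-month replicates 1 to 5, and 4.97, 5.19, 5.30, 4.84 and 4.86% in the dwarf 22-month replicates. These groups did not overlap, with means of 6.85 ± 0.294 and 5.03 ± 0.205% (SD, n = 5). In normal mice the shares were 5.01, 5.98, 9.31, 5.57 and 4.70% at 6 months and 4.98, 5.57, 4.91, 5.46 and 4.87% at 22 months. The mean was 6.12 ± 1.86% at 6 months and 5.16 ± 0.330% at 22 months, and the groups overlapped. Without replicate 3 the normal 6-month mean was 5.32 ± 0.573% (n = 4), and each dwarf 6-month library was then above each normal 6-month library. Large and small subunit genes moved alike: in dwarf mice the Rpl share was 4.06 ± 0.183% at 6 months and 2.97 ± 0.123% at 22 months, and the Rps share was 2.78 ± 0.113% and 2.06 ± 0.0821%. Because these are shares of bulk RNA, fewer cells rich in ribosomal protein mRNA and less such mRNA per cell cannot be told apart.

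**Figure D1:**
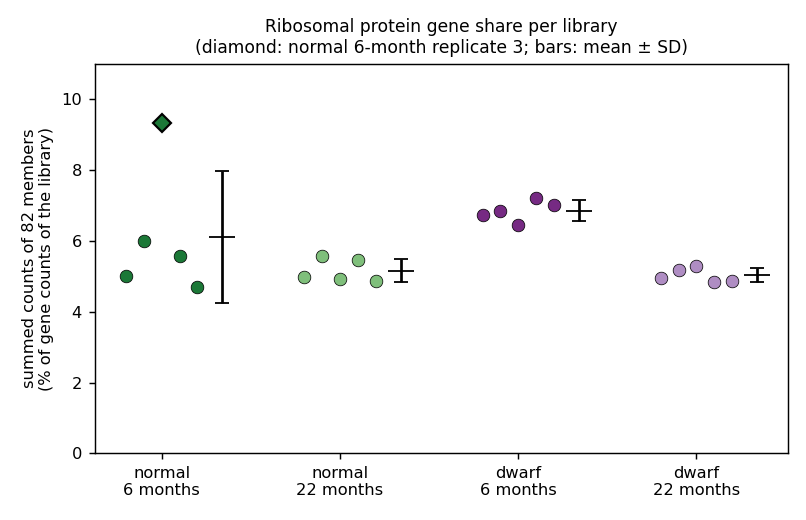
Percent of gene counts held by the 82 members in each of the 20 libraries (vertical axis, from 0) for the 4 groups (horizontal axis), with the group mean ± SD (n = 5) as a bar and normal 6-month replicate 3 as a diamond. The dwarf 6-month libraries lie between 6.44 and 7.21% and the dwarf 22-month libraries between 4.84 and 5.30%, while the diamond stands at 9.31%.

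Members differed widely in level once their exon lengths were taken into account. Per kb of exon sequence in the deposited annotation, the mean over all libraries was highest for Rpl41, which encodes the shortest protein of the large subunit, at 3741 CPM per kb. Rps28, Rps29, Rps26 and Rpl23a followed at 2942, 2565, 2549 and 2337 CPM per kb. The short genes thus led the order, and Rpl41 itself was variable, at 1319, 2265, 3038, 1461 and 1644 CPM in the normal 6-month libraries. Of the 79 tested members 70 had a mean of at least 100 CPM, and the other 9 were Rpl7l1 (74.2 CPM), Rps27l (38.6), Rps19bp1 (15.6), Rpl22l1 (12.1), Rps4y2 (10.48), Rpl34 (3.65), Rps27 (3.27), Rpl30 (1.72) and Rpl39l (0.421).

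Several of these low values belong to genes whose exons coincide with another gene row. Rpl26, a large subunit gene, had 0 counts in all 20 libraries, which allows at most 0.0103 CPM over all of them together, for counting error only. Its exons overlap those of Gm15772 on the same strand over 95.8% of their length. The same was true of Rpl30 with Gm12191 (76%), Rpl34 with Rpl34-ps1 (67.2%) and Rps27 with Gm9846 (60%). How far reads shared with those rows set the levels was not tested, and the values of Rpl26, Rpl30, Rpl34 and Rps27 are uncertain. Another 6 members (Rpl5, Rpl31, Rpl32, Rpl35, Rps25 and Rps27a) overlap a gene of the opposite strand, Rpl13a overlaps a microRNA gene by 1 base, and the remaining 71 overlap none. Rps4y2 is a row on chromosome 6 that RefSeq lists as Rps4l and classes as a transcribed pseudogene, close in sequence to Rps4x, so its reads are uncertain too.

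**Figure D2:**
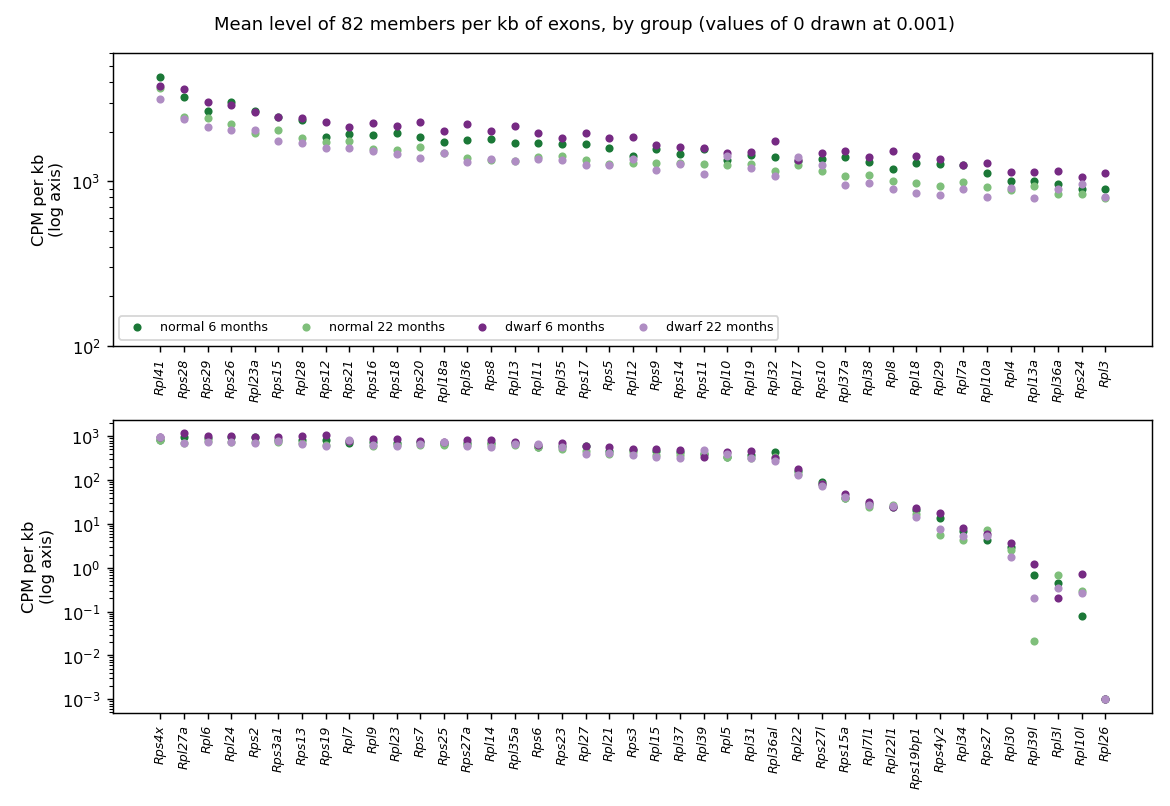
Mean level of each of the 82 members per kb of exons (vertical axes, CPM per kb, log scale) in the 4 groups (colours), ordered by the mean over all libraries. The order runs from Rpl41 at 3741 down to Rpl39l at 0.523, Rpl3l, Rpl10l and Rpl26, which is at 0 and drawn at 0.001.

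The comparison of 22 with 6 months in dwarf mice asked how the family changed as dwarf ovaries aged. Here 28 of 79 tested members fell and 0 rose (background: 8.27% of all tested genes fell and 2.92% rose). Most others leaned the same way: 78 of 79 had a log2 fold change below 0, with a median of -0.57 against 0.00 for all tested genes. In 60 of the 79, the lowest CPM at 6 months was above the highest at 22 months (background: 12.2% of all tested genes). Calls were 18 of 46 among Rpl and 10 of 33 among Rps symbols, and both medians were -0.57. The middle 50% of members lay between -0.69 and -0.37. The members were read in the same libraries, so their values are not independent of one another.

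Rpl8, a large subunit protein close to the peptidyl transferase centre (mm10 chromosome 15, 76904071 to 76906318), had the smallest p. At 6 months the dwarf libraries gave 1360, 1333, 1217, 1334 and 1381 CPM, and at 22 months 769, 731, 806, 780 and 766 CPM. These groups were far apart, and the fall was 0.86 ± 0.185 on the log2 scale (edgeR adjusted p = 0.00712). Rps19, which the small subunit needs for maturation of its ribosomal RNA and which is mutated in Diamond-Blackfan anaemia, gave 679.6, 638, 624, 687 and 674 CPM at 6 months. At 22 months it gave 396, 385, 433, 365 and 344 CPM, again without overlap (log2 -0.86 ± 0.209, edgeR adjusted p = 0.0137). The large subunit genes Rpl36 and Rpl18 fell by 0.86 ± 0.246 and 0.83 ± 0.219 on the log2 scale (edgeR adjusted p = 0.0307 and 0.0215). Rpl36 went from 909 ± 47.1 to 530.2 ± 72.1 CPM and Rpl18 from 971 ± 39.0 to 579.5 ± 46.3 CPM (SD, n = 5).

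Other large subunit genes fell as well, while the values of further well-known members did not pass the test. Rpl10a went from 1026, 1061, 1061, 1150 and 1099 CPM at 6 months to 639, 668, 750, 647 and 644 CPM at 22 months (log2 -0.77 ± 0.194, edgeR adjusted p = 0.0164). Rpl13a, which also serves in the GAIT complex that silences inflammatory mRNAs, went from 1172 ± 52.7 CPM at 6 months to 814.5 ± 49.8 CPM at 22 months (log2 -0.61 ± 0.189, edgeR adjusted p = 0.0451). Rpl15, Rpl32 and Rpl3, structural proteins of the large subunit, fell by 0.69 ± 0.162, 0.78 ± 0.196 and 0.57 ± 0.137 on the log2 scale (edgeR adjusted p = 0.0121, 0.0161 and 0.0137). Rpl11 and Rpl5, which join the 5S ribosomal RNA and bind the p53 regulator Mdm2 when assembly fails, had log2 values of -0.61 ± 0.212 and -0.26 ± 0.125 (edgeR adjusted p = 0.0687 and 0.178). Rpl23, which also binds Mdm2, stood at -0.58 ± 0.204 (edgeR adjusted p = 0.071). Rpl38, tied to translation of Hox mRNAs in the embryo, stood at -0.62 ± 0.259 and Rps3, at the mRNA entry site of the small subunit, at -0.55 ± 0.181 (edgeR adjusted p = 0.124 and 0.0548). Rpl41, the most abundant member per kb, stood at -0.34 ± 0.215 (edgeR adjusted p = 0.31).

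A few members had log2 values near 0 within this trend. Rps6, the small subunit protein phosphorylated by the S6 kinases, was at 848, 930.3, 873, 885 and 925 CPM at 6 months and at 912.5, 1047, 864, 894 and 959 CPM at 22 months. The groups overlapped, with a log2 value of -0.01 ± 0.150 (edgeR adjusted p = 0.968). Rps4x, the X-linked small subunit gene, went from 840 ± 39.5 CPM at 6 months to 865 ± 38.0 CPM at 22 months (log2 -0.04 ± 0.141, edgeR adjusted p = 0.888). Rpl10, which completes the large subunit in the cytoplasm, had log2 -0.16 ± 0.158 (edgeR adjusted p = 0.526). Rpl7 and Rpl17, the latter named after its values were seen, were at -0.01 ± 0.151 and -0.01 ± 0.190. Rpl39, a small protein that lines the exit tunnel, was the only member above 0, at 121, 155, 133, 171 and 72.6 CPM at 6 months and 182, 216, 183, 128 and 249 CPM at 22 months (log2 0.49 ± 0.302, edgeR adjusted p = 0.299).

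**Figure D3:**
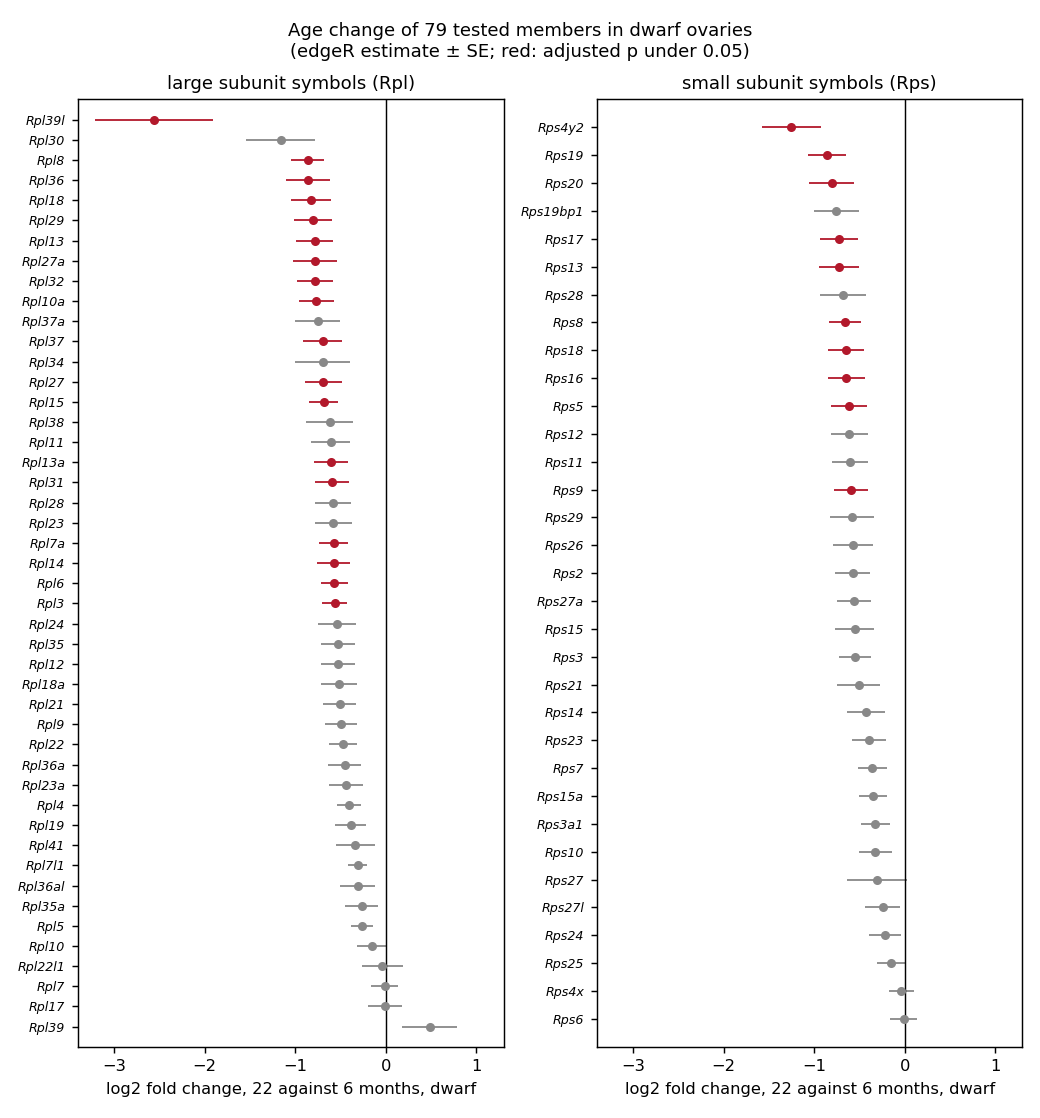
Log2 fold change of the 79 tested members at 22 against 6 months in dwarf mice (horizontal axis), as the edgeR estimate ± SE, with Rpl symbols on the left, Rps symbols on the right and called members in red. All 33 Rps and 45 of 46 Rpl points lie below 0, and Rpl39 at 0.49 is the exception.

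The number of calls depended on the libraries in the fit far more than the size of the falls did, since the median stayed between -0.57 and -0.49 with any 1 dwarf library left out. With normal 6-month replicate 3 taken out of the shared fit, though it is in neither dwarf group, 60 of 79 members fell (10% of all tested genes) and the median was -0.54. Fitted on the 10 dwarf libraries alone 65 fell (18.2% of all tested genes), and without the 3 libraries that stood apart 64 of 80 fell (15.4% of all tested genes). Leaving out any 1 dwarf library left 3 to 18 calls, the lowest without dwarf 6-month replicate 5, where Rpl8, Rps19 and Rpl15 were the members still called (3.6% of all tested genes fell there). With dwarf 22-month replicates 1 and 4 summed as 1 library, 9 members fell (5.01% of all tested genes). Under RLE and upper quartile scaling 15 and 13 fell (6.88 and 6.51% of all tested genes).

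Other quantities are given beside the members for age in the dwarf libraries. For the marker counts, 1966 of all 16099 tested genes were lower and 1585 higher at 22 months without overlap. The 5 oocyte markers summed to 279 to 419 CPM at 6 months and 41.1 to 68.5 CPM at 22 months, with 5 of 5 lower without overlap. The 5 granulosa markers summed to 1826 to 2972 and 795 to 1424 CPM (4 of 5 lower without overlap), and the 5 oviduct markers to 55.5 to 1426 and 1942 to 3454 CPM (1 of 5 higher without overlap). The 3 adipocyte markers summed to 16.2 to 43.2 and 59.6 to 156 CPM (2 of 3 higher without overlap) and the 4 T cell markers to 7.79 to 13.7 and 16.8 to 26.5 CPM (2 of 4 higher without overlap). Of the 4 theca and stroma markers 2 had a lower median at 22 months (Col1a1 and Cyp17a1) and 2 a higher one (Dcn and Pdgfra). Only Dcn, a matrix proteoglycan, was without overlap, at 430 to 744 and 837 to 1309 CPM. No marker of these lists was at 0 throughout a group. Rn45s took 3.12 to 7.01% and 2.40 to 7.71% of the counts, and all tested genes with exons under 1000 bases had a median log2 change of -0.13. The part of these in the fall of the members was not tested.

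The same ages in normal mice gave fewer calls, and the median depended on which 6-month libraries were in the fit. With all libraries 2 of 79 members fell and 0 rose (background: 4.14% of all tested genes fell and 2.6% rose), and the log2 median was -0.31 against -0.02 for all tested genes, with 75 of 79 below 0. Without normal 6-month replicate 3 the median was 0.01, with 43 above and 36 below 0, and the same pair was called (background then 3.65%). Rpl8 shows the pattern of the abundant members. It stood at 1027, 925, 1488, 1000 and 670.2 CPM at 6 months, where replicate 3 is the high value, and at 810, 888, 1006, 879 and 766 CPM at 22 months. Its log2 value was -0.29 ± 0.183 with all libraries (edgeR adjusted p = 0.349) and 0.00 without replicate 3. Rps19 likewise read 479.5, 470.2, 875, 499 and 331 CPM at 6 months and 417, 397, 377, 428 and 378.5 CPM at 22 months (log2 -0.48 ± 0.208, edgeR adjusted p = 0.168, and -0.10 without replicate 3). Rps6 was at 557, 898, 897, 769 and 892 CPM at 6 months, where replicates 2, 3 and 5 were alike, and at 689.9, 849.6, 948, 739 and 781 CPM at 22 months (log2 -0.04 ± 0.150, and 0.10 ± 0.132 without replicate 3). Without the 3 libraries that stood apart Rpl39l fell and Rps20, a small subunit gene named after its value was seen, rose (log2 0.42, edgeR adjusted p = 0.0423; background: 12.9% of all tested genes fell and 16.7% rose).

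The called pair consisted of low rows. Rpl39l, a paralog of Rpl39 known from male germ cells, stood at 0.385, 0.218, 0, 1.07 and 1.05 CPM in the normal 6-month libraries, and at 22 months it was 0 in 4 libraries and 0.0859 CPM in replicate 2. In dwarf mice it went from 0.873, 0.772, 0.539, 1.27 and 1.36 CPM to 0.266, 0.198, 0.0744, 0.269 and 0 CPM, without overlap. Summed over libraries this was 47 counts against 1 in normal mice, a ratio of 52.3 between summed CPM with a 95% counting interval of 8.94 to 2110, and 116 against 8 in dwarf mice, a ratio of 6.05 (2.97 to 14.4). Those intervals cover counting error only. The fitted log2 changes were -4.79 ± 0.872 in normal mice (edgeR adjusted p = 0.00812) and -2.56 ± 0.650 in dwarf mice (edgeR adjusted p = 0.0171), and their size depends on the prior count. The normal value was -4.87 without normal 6-month replicate 3 (edgeR adjusted p = 0.0103). In these fits Rpl39l passed the count filter only through 6-month libraries, as its highest value at 22 months was 0.269 CPM. The direction of the calls is thus not independent of the filter. In the fit on the normal libraries alone, and with a filter of 1 CPM in 5 libraries, Rpl39l was under the minimum for testing and was not called. The oocyte markers moved beside it, from 4.88 to 348 CPM down to 5.24 to 35.2 CPM in normal mice. Their part in the fall of Rpl39l was not tested.

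Rps4y2 was at 7.45, 12.3, 26.4, 10.6 and 7.57 CPM in the normal 6-month libraries and at 5.23, 3.18, 4.54, 8.10 and 5.25 CPM at 22 months. These groups overlapped through replicate 4 at 22 months, with a log2 change of -1.32 ± 0.333 (edgeR adjusted p = 0.0238), or -0.82 without replicate 3 of the 6-month mice (edgeR adjusted p = 0.0416). In dwarf mice it went from 17.1, 16.9, 15.1, 15.9 and 17.6 CPM at 6 months to 6.39, 9.68, 6.10, 7.97 and 6.48 CPM at 22 months (log2 -1.25 ± 0.323, edgeR adjusted p = 0.0188). Its call in normal mice was lost without normal 22-month replicate 2 or 3 (edgeR adjusted p = 0.063 and 0.07), without the libraries whose titles bear the numbers 21 to 23 (edgeR adjusted p = 0.0615), without the 3 libraries that stood apart (edgeR adjusted p = 0.0649) and in the fit on the normal libraries alone (edgeR adjusted p = 0.254). Its parent Rps4x stood at a log2 value of -0.04 ± 0.141 in both genotypes.

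**Figure D4:**
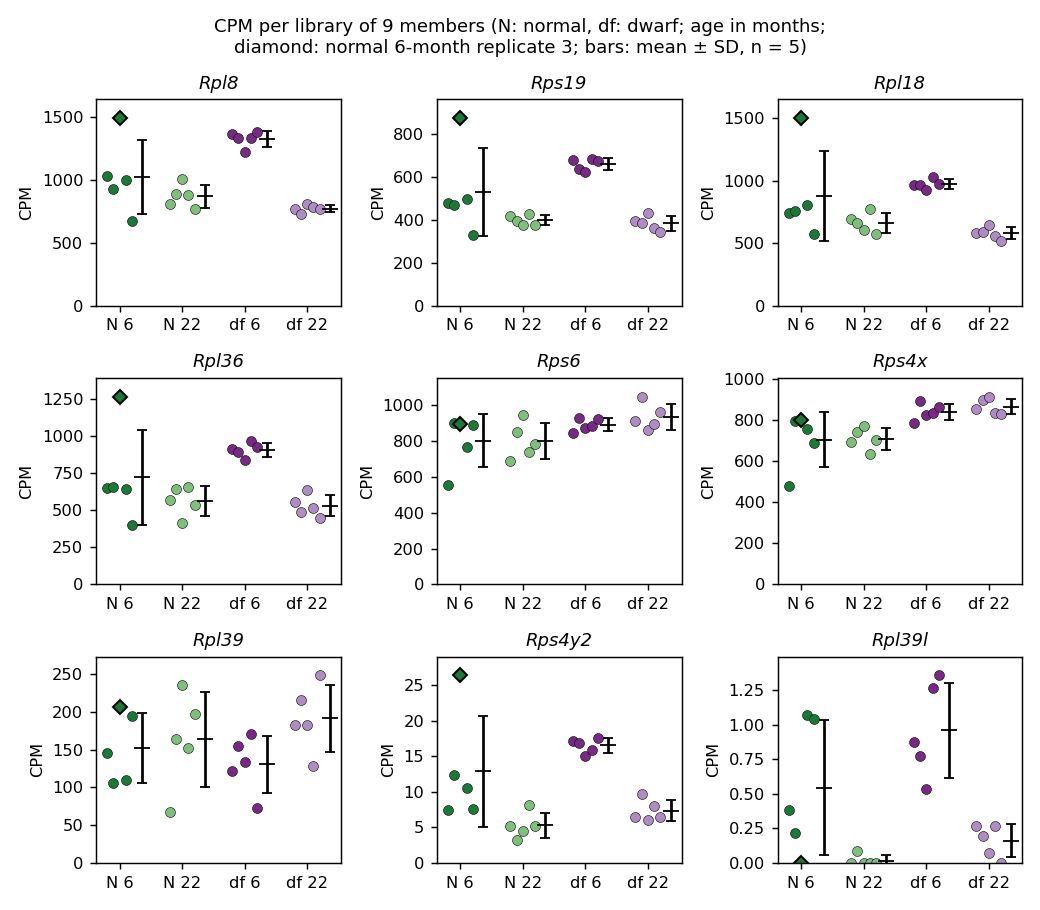
CPM in each library (points) with mean ± SD (bars, n = 5) for 9 members in the 4 groups, normal 6-month replicate 3 as a diamond; each panel has its own vertical axis from 0. Rpl8, Rps19, Rpl18 and Rpl36 separate the dwarf ages, Rps6 and Rps4x do not, and Rpl39l reads 0 in 4 of 5 normal 22-month libraries.

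The next comparisons share their groups with those of age, so they are not independent of them. Dwarf and normal ovaries were compared at 6 months to ask whether genotype set the level of the family in young animals. With all libraries 0 of 79 members were called (background: 4.57% of all tested genes in either direction), and Rpl5 and Rpl36al had an unadjusted p under 0.05. DESeq2 called Rpl10l alone, as higher, and limma voom called 11. Rpl10l is not among the 79, and had 7 counts summed over the normal and 96 over the dwarf 6-month libraries. The direction of its DESeq2 call is thus not independent of where it had counts. The median log2 difference, dwarf minus normal, was 0.11 against -0.04 for all tested genes, with 64 of 79 above 0. Without normal 6-month replicate 3, 34 of 79 were higher in dwarf mice and 0 lower (background: 2.55% of all tested genes higher and 2.32% lower). The median was then 0.42, 77 of 79 were above 0, and 47 of 79 had every dwarf library above every normal one (background: 5.36% of all tested genes). Rps19 is an example, at 444.8 ± 77.0 CPM in the 4 normal and 660.4 ± 27.8 CPM in the 5 dwarf libraries (log2 0.60 ± 0.111, edgeR adjusted p = 0.00516). Rpl8 was at 906 ± 163 and 1325 ± 63.4 CPM (log2 0.57 ± 0.118, edgeR adjusted p = 0.00926), and Rps12 at 822 ± 178 and 1194 ± 45.7 CPM (log2 0.56 ± 0.126, edgeR adjusted p = 0.0153). Rpl5 was also higher in dwarf mice in that fit, at 673 ± 79.7 and 885 ± 47.6 CPM (log2 0.42 ± 0.0920, edgeR adjusted p = 0.013). Values for Rpl41, Rps6 and Rpl39 were 0.04 ± 0.148, 0.22 ± 0.132 and -0.07 ± 0.300. Luteal markers differed beside the members: their summed level was 6867, 99.2, 7417, 6308 and 8676 CPM in normal 6-month replicates 1 to 5 and 1408 to 2665 CPM in the dwarf 6-month libraries. The median of 5 of 5 was lower in dwarf mice, 2 of them without overlap. In the other direction 1 of 4 B cell markers was higher without overlap. Of 3 red blood cell markers only Alas2 had counts, and it was higher without overlap. The other 2, Hbb-b1 and Hba-a1, were at 0 in all libraries. Of all 16099 tested genes 655 were higher and 291 lower without overlap. The part of these in the members' difference was not tested.

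Leaving out all 3 normal libraries that stood apart gave 61 of 80 members higher in dwarf mice and 0 lower (background: 6.53%), with a median of 0.45. Each of those fits leaves 3 or 4 normal 6-month mice, and the fit with 4 keeps replicate 2, with its low oocyte, granulosa and luteal markers. Replicate 3 had the fewest counts of all libraries and the highest Rn45s share, and the part of depth or of RNA quality in its member share was not tested. Rpl36al, a paralog of Rpl36a, went the other way from most: it stood at 228 ± 66.1 CPM in normal and 165 ± 7.50 CPM in dwarf 6-month mice (log2 -0.53 ± 0.191, edgeR adjusted p = 0.126, and -0.26 ± 0.138 with edgeR adjusted p = 0.317 without replicate 3), against 469.9 ± 135 and 564 ± 41.4 CPM for Rpl36a (log2 0.19 ± 0.181, edgeR adjusted p = 0.636). Without normal 6-month replicate 5 Rpl36al was the only member called (log2 -0.69, edgeR adjusted p = 0.0343), and the median of the members was then -0.03.

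At 22 months the genotypes were close. None of 79 members was called (0, with a background of 3.81% of all tested genes in either direction), Rpl39l and Rpl36al had an unadjusted p under 0.05. DESeq2 called 0, and limma voom called the same pair, Rpl39l higher and Rpl36al lower. The median was -0.14 against -0.04 for all tested genes. Rpl8 stood at 869.7 ± 91.4 CPM in normal and 770.3 ± 27.1 CPM in dwarf mice (log2 -0.27 ± 0.183, edgeR adjusted p = 0.491), and Rps19 at 399 ± 22.7 and 385 ± 33.6 CPM (log2 -0.14 ± 0.207, edgeR adjusted p = 0.81). Without the 3 libraries that stood apart Rpl10a, Rpl27 and Rpl36al were lower in dwarf mice (log2 -0.31, -0.35 and -0.47), with 5.4% of all tested genes lower. Rpl27 is named there after its value was seen.

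**Figure D5:**
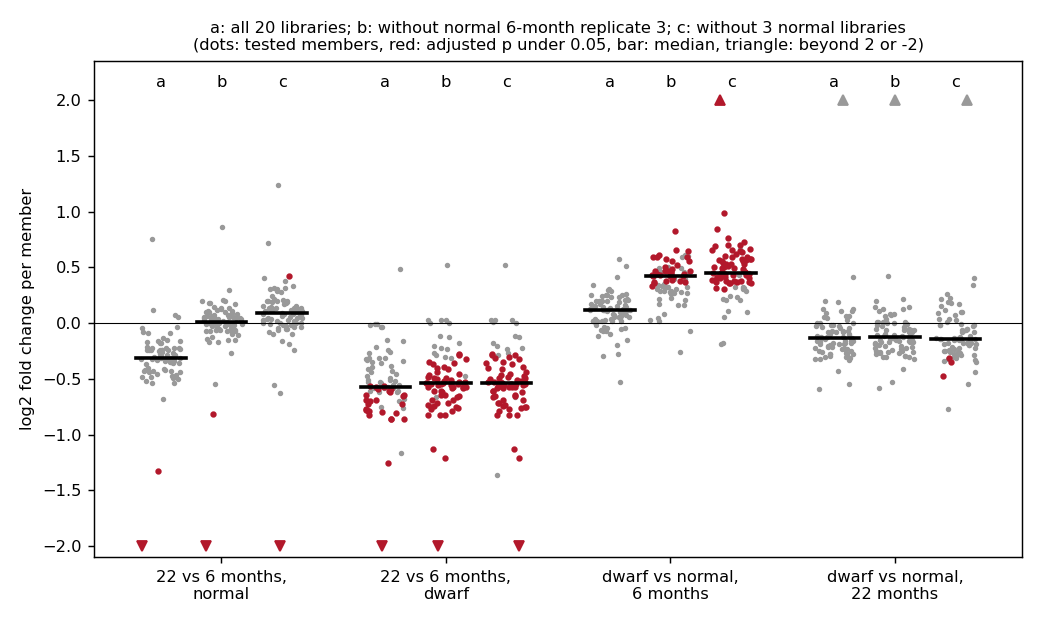
Log2 fold change of each tested member (points, called members in red, bar at the median) in 4 comparisons, with all 20 libraries (a), without normal 6-month replicate 3 (b) and without 3 normal libraries (c); triangles mark values beyond the axis. The medians run -0.31, 0.01 and 0.09 with age in normal mice and -0.57, -0.54 and -0.54 with age in dwarf mice; between genotypes they run 0.11, 0.42 and 0.45 at 6 months and -0.14, -0.12 and -0.14 at 22 months.

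Whether the fall with age differed between genotypes was tested as the difference of the age responses, dwarf minus normal. No member passed (0 of 79, and 0% of all tested genes), the unadjusted p was under 0.05 for Rpl8 and Rps27, and neither DESeq2 nor limma voom called a member (0 each). The median was -0.21 against 0.00 for all tested genes. For Rpl8 the difference was -0.57 ± 0.259 (edgeR adjusted p = 0.688) and for Rpl10a -0.41 ± 0.273 (edgeR adjusted p = 0.859). Without normal 6-month replicate 3 the median was -0.52, 64 members had an unadjusted p under 0.05 and 0 passed the adjusted threshold (0% of all tested genes). Without the 3 libraries that stood apart 29 of 80 members passed, each with the steeper fall in dwarf mice (background: 0.519% of all tested genes), and the median was -0.59. A steeper fall in dwarf mice is therefore not shown with all libraries, and is called only when 3 of the 10 normal libraries are left out.

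The log2 values of paralogs and their parents were not alike in every case, and the differences within pairs were not tested. Rpl22 stood at 357 ± 22.4 and 273 ± 22.4 CPM in dwarf mice at 6 and 22 months (log2 -0.47 ± 0.159, edgeR adjusted p = 0.0602), and its paralog Rpl22l1 at 11.7 ± 1.09 and 12.0 ± 3.18 CPM (log2 -0.04 ± 0.229). Rps27l, a target of p53, stood at 38.8 ± 1.31 and 34.6 ± 8.03 CPM (log2 -0.24 ± 0.191), and Rpl7l1, an assembly factor of the large subunit, at 84.3 ± 3.40 and 71.9 ± 5.34 CPM (log2 -0.31 ± 0.103, edgeR adjusted p = 0.0563). Rps19bp1 had log2 -0.76 ± 0.249 (edgeR adjusted p = 0.0547), close to Rps19 in size. Rpl10l, an autosomal copy of Rpl10 known from male germ cells, was under the minimum for testing, with 7 counts summed over the normal 6-month and 96 over the dwarf 6-month libraries. That is a ratio of 7.40 between summed CPM in favour of dwarf mice (95% counting interval 3.46 to 18.9). Rpl10l was called higher without the 3 libraries that stood apart (log2 2.37 ± 0.688, edgeR adjusted p = 0.0336). There it passed the count filter only through dwarf 6-month replicates 1, 2 and 5 (0.748, 0.950 and 1.25 CPM). The direction of that call is thus not independent of the filter. Rpl3l, the muscle paralog of Rpl3, stayed at or under 3.28 CPM in all libraries.

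The ribosomal protein genes outside the rule moved the same way in dwarf mice. With age 4 of 7 fell (background 8.27%), namely Rplp0, Rplp2, Rpsa and Gnb2l1, and the median of the list was -0.61. Rplp0, which anchors the ribosomal stalk, went from 2674 ± 133 CPM at 6 months to 1683 ± 91.9 CPM at 22 months (log2 -0.75 ± 0.149, edgeR adjusted p = 0.0051), and its stalk partner Rplp2 from 520.2 ± 43.9 CPM at 6 months to 272 ± 39.1 CPM at 22 months (log2 -1.01 ± 0.284, edgeR adjusted p = 0.0278). In normal mice 0 of 7 were called.

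Other genes of the ribosome pathway were counted for comparison. Of 37 ribosome biogenesis genes 18 fell with age in dwarf mice and 12 in normal mice (background: 8.27 and 4.14% of all tested genes). In either genotype 0 rose, and the medians were -0.43 and -0.38. Nop2, which methylates large subunit ribosomal RNA, fell by 0.69 ± 0.106 and 0.55 ± 0.106 on the log2 scale (edgeR adjusted p = 0.000963 and 0.00933), and Fbl, the box C/D methyltransferase, by 0.86 ± 0.144 and 0.67 ± 0.144 (edgeR adjusted p = 0.00171 and 0.0129). In normal mice 10 of 37 biogenesis genes fell without normal 6-month replicate 3 (background 3.65%). That fit gave a ribosomal protein median of 0.01. The difference between these lists was not tested. Of 15 RNA polymerase I genes 6 fell in dwarf mice (background 8.27%), among them Polr1b, the second largest subunit (log2 -0.94 ± 0.153, edgeR adjusted p = 0.00143). In normal mice 0 fell, or 1 without normal 6-month replicate 3 (background 4.14 and 3.65%).

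Of a list of 21 genes known for the 5′ tract, mostly translation factors, 5 fell with age in dwarf mice (background 8.27%). In normal mice 1 fell (background 4.14%), or 0 without normal 6-month replicate 3. In dwarf mice Eef1g went from 725 ± 58.2 CPM at 6 months to 433 ± 21.4 CPM at 22 months (log2 -0.83 ± 0.117, edgeR adjusted p = 0.000666) and the translocation factor Eef2 from 5507 ± 398 CPM at 6 months to 3654 ± 220.1 CPM at 22 months (log2 -0.67 ± 0.122, edgeR adjusted p = 0.00296). Of 19 genes that link mTORC1 and Myc to ribosome production 5 fell in dwarf mice (Myc, Max, Larp1, Akt1s1 and Eif4ebp1) and 1 in normal mice (Larp1). The backgrounds were again 8.27 and 4.14% of all tested genes. Myc, a transcription factor that drives ribosome genes, went from 230.7 ± 37.0 CPM at 6 months to 67.5 ± 6.86 CPM at 22 months (log2 -1.86 ± 0.274, edgeR adjusted p = 0.000791). Of 9 snoRNA host genes with the tract 1 rose (Snhg3) and 1 fell (Snhg6) in dwarf mice (background 2.92 and 8.27%). The 76 mitochondrial ribosomal protein genes, which serve another ribosome, fell in 7 cases in dwarf mice and 5 in normal mice (background 8.27 and 4.14%). In dwarf mice their share of calls was near that background. The medians were -0.29 and -0.33, with 69 and 75 of 76 below 0. In normal mice 2 fell without normal 6-month replicate 3 (background 3.65%), with a median of -0.13. Between genotypes and with all libraries, few genes of these lists were called: Mrps36 was lower in dwarf mice at 6 months, and Nhp2 and Bop1 were lower at 22 months (edgeR adjusted p = 0.0394, 0.0413 and 0.0117). Without normal 6-month replicate 3, 6 of the 7 ribosomal protein genes outside the rule were higher in dwarf mice at 6 months, with a median of 0.42. Of all tested genes 2.55% were higher and 2.32% lower there. In that fit 1 gene of the translation factor list and 1 biogenesis gene were higher. Of the mTORC1 list 1 gene was higher and 1 lower, and 1 mitochondrial ribosomal protein gene was lower.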

How the data were processed

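Each of the 20 deposited count files lists whole read counts by gene symbol for 1 library and ends in 5 summary rows in the style of HTSeq. Per the labels' protocols the RNA was polyadenylated. The submitters' processing notes name mm10 and the tools TopHat2 2.0.10, TopHat, Bowtie2, HTSeq, edgeR and DESeq; the sources used here do not give their order or whether counting used strand. Summary entries made up 9.84 to 17.6% of a file (alignments that were not unique 8.70 to 16.2%, ambiguous between genes 1.14 to 1.54%) and were left out of library totals and tests. Columns of per-sample values left unused numbered 0.

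The tests used edgeR 4.0.16 under R 4.3.3. The filter was filterByExpr with a count of 10 and a total of 15, scaling was TMM, and robust quasi-likelihood fits of 4 group means gave 5 contrasts, called at 0.05 after Benjamini-Hochberg adjustment. The labels do not pair mice: of the 5 pairs with the same replicate number, 2, 2, 3 and 2 correlated above 0.1 in the 4 pairwise comparisons (-0.238 to 0.752), so numbers were not treated as pairs. The p-values set each difference against the spread between mice, which the main fit estimated over all 4 groups together. Members, gene lists and alternatives were chosen with earlier results of these data known. Named genes are up to 6 called members with the largest rise or fall in each comparison, up to 10 with the smallest p of the interaction, the 5 highest and 5 lowest per kb, a panel of members with known roles, the paralogs with their parents, the genes outside the rule (1 is not reported here) and up to 3 called genes of each other list. Genes named to complete a count of 5 or fewer, such as Max, and Rpl17 and Rpl27 were named after their values were seen. Exon lengths and overlaps came from the deposited mm10 annotation.

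Alternatives were RLE, upper quartile and no scaling, other low-count filters, DESeq2 1.42.0, limma 3.58.1 (voom), non-robust fits, fits on 2 groups alone, a block for the replicate number, libraries left out or summed, and Rn45s removed. Reads were not used here.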

Additional observations from a re-analysis of the deposited data

Results flagged for a closer look

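Within each group of 5 libraries, the highest or lowest value was looked at where its gap to the next exceeded 0.710 of the group's range, a test that flags about 1 in 20 groups by chance. Of 168 combinations of a share or a named member with a group, 15 were singled out, and 9 of these were normal 6-month replicate 3. In that library the members held 9.31% of counts (4.70 to 5.98% in the other 4), the Rpl symbols 5.43% (2.81 to 3.55%) and the Rps symbols 3.89% (1.89 to 2.43%). Single members there were Rpl10a at 1467 CPM (675 to 877 in the others), Rpl13a at 1593 (749 to 989), Rpl18 at 1498 (576 to 802.5), Rpl23a at 2345 (1143 to 1482), Rps4y2 at 26.4 (7.45 to 12.3) and Rpl3l at 2.20, which is 3 counts (0.0616 to 0.642).

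The other 6 fell in 5 libraries. Dwarf 22-month replicate 3 was high for Rpl10a, at 750 CPM (639 to 668 in the other 4). Dwarf 6-month replicate 4 was high for Rpl13a, at 1265 CPM (1140 to 1159), and dwarf 6-month replicate 3 was low for Rpl3, at 1356 CPM (1544 to 1605). Normal 22-month replicate 2 was high for Rps3, at 886 CPM (783.5 to 810.2), and held the 1 count of Rpl39l in that group (0.0859 CPM, the others at 0). Normal 22-month replicate 4 was high for Rpl3l, at 3.28 CPM (0.276 to 1.00).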

How the results depend on the processing

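Among medians, the one for age in normal mice changed sign: it was -0.31 with all libraries, 0.00708 without normal 6-month replicate 3 (range -0.46 to 0.00708 with 1 library left out) and 0.088 without the 3 libraries that stood apart. The genotype median at 6 months rose to 0.42 and 0.45 in these fits (-0.032 to 0.42 with 1 library left out, below 0 without normal 6-month replicate 5), and that of the difference of age responses went to -0.52 and -0.59 (-0.52 to -0.053 with 1 left out), and to -0.42 with voom. The median for age in dwarf mice kept its sign in each alternative.

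Calls for age in dwarf mice numbered 28, and 15 with RLE, 13 with upper quartile scaling, 68 with voom, 65 on the dwarf libraries alone, 15 without title numbers 21 to 23, 64 without the 3 libraries, 9 with dwarf 22-month replicates 1 and 4 summed, 60 with normal 6-month replicate 3 out of the shared fit and 3 to 18 with 1 dwarf library left out. For age in normal mice the 2 calls became 1 with a filter of 1 CPM in 5 libraries, 4 with voom, 0 on the normal libraries alone, 1 without title numbers 21 to 23 and 1 to 5 with 1 library left out, and stayed 2 without the 3 libraries, where Rps20 rose and Rps4y2 was not called. The 0 calls at 6 months became 1 with DESeq2, 11 with voom, 1 (lower) without title numbers 21 to 23, 61 without the 3 libraries and 0 to 34 with 1 left out. The 0 calls at 22 months became 2 with voom and 3 without the 3 libraries, and the 0 for the difference of age responses became 29 without them.

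Summed shares moved by more than the SD with Rn45s out of the total, to 5.53, 7.26 and 5.38% in normal 22-month, dwarf 6-month and dwarf 22-month mice, and with the 7 genes outside the rule added, to 5.97, 7.95 and 5.80%. With a replicate block, which the labels do not support as pairing, calls were 32 for age in dwarf mice and 2 in normal mice. Alternatives chosen after seeing the data were leaving out Rps19bp1, leaving out members with exon overlaps, and the shared fit without normal 6-month replicate 3. The cause of these shifts was not tested. Rpl39l, at a mean of 0.421 CPM, rested on 47 counts in normal 6-month and 1 in normal 22-month libraries.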
